A study of Mus musculus with 20 samples.

Results

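The tRNA reads of cauda epididymosomes came mostly from tRNA-Gly and tRNA-Glu, with a far smaller part from tRNA-Val. Their counts were taken from the features named exactly Gly, Glu and Val, which are 3 of 23 tRNA isotype features. The tables list 72034 and 59035 features in all. Small RNA was sequenced from vesicles of the cauda epididymis, in male mice aged 9 months, in the same 10 libraries and in 2 runs, and each run has its own table. The tables are called here by their labels, as the size-selection table (labelled as selected by size to enrich miRNAs) and the no-selection table (labelled as not selected). MSUS males (animals 2, 4, 6, 8 and 14) came from litters exposed to unpredictable maternal separation for 3 h a day over 2 weeks after birth, together with unpredictable stress of the dams by forced swim or restraint. Control males (animals 3, 5, 7, 9 and 11) came from litters left untouched. The question put to these libraries was whether stress early in life goes with a different RNA cargo in adult vesicles. Litters of origin are not given in the labels, so every p-value within a table measures only the spread between these 10 animals. A p-value between the tables measures how steadily 2 readings of the same libraries differed or agreed over these animals.

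A tRNA carries an amino acid to the ribosome and reads a codon through its anticodon loop. When a ribonuclease such as angiogenin cuts that loop, it leaves stable fragments from either end of the molecule. Fragments of tRNA-Gly and tRNA-Glu that run from the 5′ end towards the anticodon are known as abundant small RNAs of mouse sperm and epididymosomes. Epididymosomes are secreted by the epididymal epithelium and can pass small RNAs to maturing sperm.

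Each feature adds up a whole gene family, since the tables give 1 value per isotype. RefSeq lists 28 nuclear tRNA-Gly genes on 9 chromosomes in GRCm38.p6, of which 14 have the anticodon GCC, 7 TCC, 6 CCC and 1 ACC. It lists 20 tRNA-Glu genes on 10 chromosomes, 12 with the anticodon CTC and 8 with TTC. The 22 tRNA-Val genes lie on 9 chromosomes, 10 of them on chromosome 13, with the anticodons CAC (11 genes), AAC (8 genes) and TAC (3 genes). Genes of a family share reads, so neither the anticodon nor the gene copy behind a count can be told. Position along the tRNA is not in the tables either, and whole tRNAs and fragments cannot be told apart.

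A tRNA-Val gene is shown to place the anticodon within the molecule that such fragments come from. It is n-TVcac9, a Val-CAC gene on the minus strand at chr13:23446142-23446214 (GRCm38.p6), and its 73 bases were read from RefSeq. The capitals mark the anticodon, at positions 34 to 36 counted from the 5′ end. A fragment from the 5′ end to the anticodon would hold the bases up to the capitals.
n-TVcac9: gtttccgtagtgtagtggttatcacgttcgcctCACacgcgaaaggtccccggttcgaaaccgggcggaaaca

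The libraries differed in depth and in how much tRNA they held. The size-selection table held 1872084 to 3647956 counts per library, and libraries of the no-selection table held 215231 to 871461. Contents and labels conflict: mature miRNAs made up 10.9 to 17.02% of the size-selection table and 52.4 to 72.2% of the no-selection table. Which table was in fact selected cannot be told from the files. The 23 tRNA isotypes together took 14.5 to 66.0% of all counts in the first table (median 39.2%) and 6.20 to 25.3% in the second (median 14.3%). Lowest in the first table were Control 9 (14.5%), MSUS 14 (23.8%) and Control 11 (25.3%), and results are also given without these 3 libraries. They were chosen by their tRNA share, most of which is Gly, Glu and Val. Results without them are therefore no independent check of these isotypes. Summed markers of epididymal epithelium reached 787 to 3302 CPM (counts scaled to a common library total) in MSUS and 2123 to 4993 CPM in Control libraries of the first table, with 14 of 15 markers above 0 and Lcn9 at 0. Sperm and spermatid markers summed to 231 to 512 CPM in MSUS and 279 to 505 CPM in Control libraries of that table, with 12 of 12 above 0.

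Gly and Glu dominated the tRNA counts in every library, and Val added a small part. Gly, Glu and Val together took 91.8 to 96.8% of tRNA counts in the size-selection table and 88.5 to 95.3% in the no-selection table. They took 13.3 to 63.6% (median 37.6%) and 5.48 to 24.1% (median 13.4%) of all counts. Gly was the most abundant of all features in 10 of 10 libraries of the first table and in 7 of 10 of the second, where its lowest rank was 8. Glu ranked 2 and 10 by its mean share, and Val 6 and 30. The miRNA with the largest share was miR-148a-3p, with 1.47% of all counts in the first table and 7.80% in the second. Gly took 29.5% and 9.97% in those tables.

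**Figure D1:**
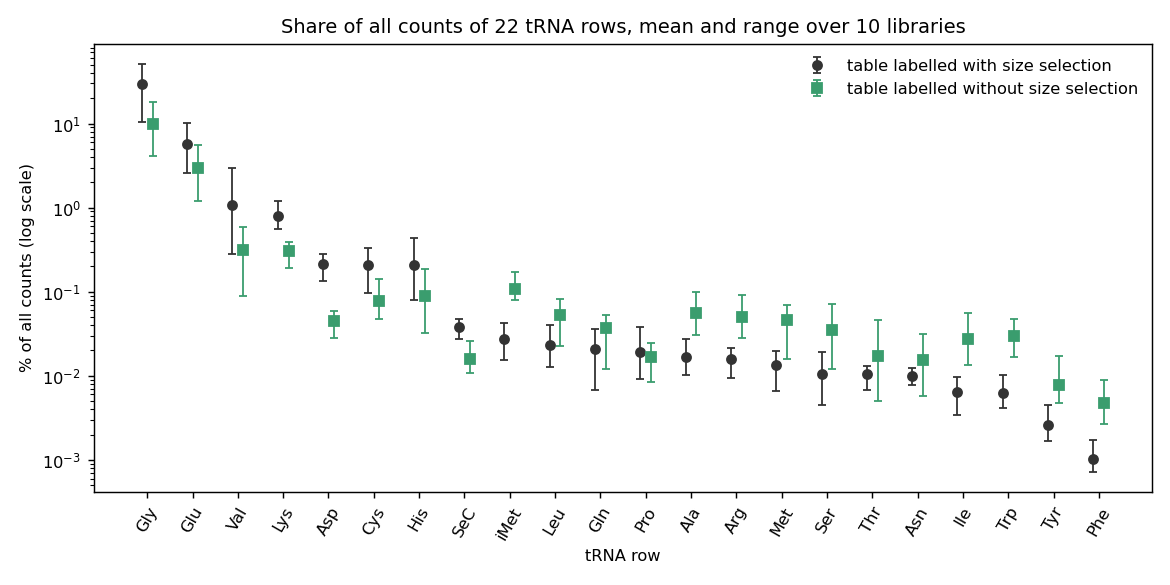
Share of all counts (%, log axis) of 22 tRNA isotype features in the size-selection table (circles) and the no-selection table (squares); points are means and bars the range over 10 libraries, and the suppressor tRNA feature, close to 0, is left out. Gly stands highest in both tables at 29.5% and 9.97%, Glu follows at 5.64% and 2.94%, and Val at 1.07% and 0.317% lies close to Lys at 0.805% and 0.303%.

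The 3 isotypes differed widely in abundance among themselves. Gly had 371419 to 1351715 counts per library in the size-selection table and 13103 to 81609 in the other. Glu had 86206 to 270503 and 3785 to 18720 counts, and Val 9767 to 78537 and 545 to 2252 counts. There were 4.05 to 6.49 Gly counts per Glu count in the first table (median 5.14) and 2.64 to 4.51 in the second (median 3.29). For every 100 Gly counts there were 1.58 to 5.81 Val counts in the first table and 1.37 to 5.43 in the second. In both tables that ratio was highest in MSUS 8 and lowest in Control 3. Lys, the tRNA isotype of rank 4, overlapped Val: its range over libraries was 0.560 to 1.19% of all counts in the first table, where Val spanned 0.281 to 2.94%. Lys in the no-selection table was above Val by mean share of tRNA counts, 2.28% against 2.19%, and below it by mean share of all counts, 0.303% against 0.317%. In MSUS 14 and Control 3, 9 and 11 of both tables, Val lay below the lowest Lys share of any library. That lowest Lys share was 0.560% of all counts in the first table and 0.193% in the second.

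The mitochondrial tRNAs for the same amino acids were far scarcer. In the size-selection table mt-Tg, the mitochondrial tRNA-Gly, averaged 0.0126% of all counts in MSUS and 0.0108% in Control libraries. The mitochondrial tRNA-Glu, mt-Te, averaged 0.0173% in MSUS and 0.0186% in Control libraries, and mt-Tv, the mitochondrial tRNA-Val, 0.00936% in MSUS and 0.0106% in Control libraries. In the no-selection table the same 3 tRNAs lay between 0.00279 and 0.00937% on average in either group.

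The share of all counts taken by Gly was compared between MSUS and Control males first. In the size-selection table it was 31.1, 40.2, 31.6, 50.6 and 19.0% in MSUS males 2, 4, 6, 8 and 14, against 31.3, 27.1, 33.2, 10.4 and 20.3% in Control males 3, 5, 7, 9 and 11. MSUS 8 and MSUS 4 lay above every Control library, Control 9 lay below every other library, and the groups overlapped. The mean was 34.5 ± 11.7% in MSUS and 24.5 ± 9.28% in Control libraries (SD, n = 5 each), a difference of 10.0 percentage points (exact two-sided permutation p = 0.198, adjusted p = 0.304 over 10998 features). The difference was 7.85 points without Control 9, Control 11 and MSUS 14, and 6.02 points without MSUS 8. In vesicle RNA measured in bulk, fewer vesicles of a kind and less RNA per vesicle cannot be told apart.

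Glu followed Gly library by library in the same table. Its share of all counts was 5.89, 8.15, 6.55, 10.1 and 3.35% in MSUS males 2, 4, 6, 8 and 14, against 4.93, 4.60, 7.10, 2.57 and 3.13% in Control males 3, 5, 7, 9 and 11. Again MSUS 8 and MSUS 4 were above every Control library and Control 9 was lowest. The mean was 6.81 ± 2.53% in MSUS and 4.47 ± 1.77% in Control libraries (SD, n = 5 each), a difference of 2.34 points (exact permutation p = 0.135, adjusted p = 0.259). Without the 3 libraries low in tRNA it was 2.13 points, and without MSUS 8 it was 1.52 points.

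Val was the most uneven of the 3. Its share of all counts in the size-selection table was 1.42, 0.928, 1.22, 2.94 and 0.350% in MSUS males 2, 4, 6, 8 and 14, against 0.494, 1.21, 1.38, 0.281 and 0.439% in Control males 3, 5, 7, 9 and 11. MSUS 8 held more Val than any other library, MSUS 14 less than 4 of the 5 Control libraries, and the groups overlapped. The mean was 1.37 ± 0.965% in MSUS and 0.760 ± 0.496% in Control libraries (SD, n = 5 each), a difference of 0.612 points (exact permutation p = 0.270, adjusted p = 0.360). Leaving out MSUS 8 brought the difference to 0.220 points, and leaving out the 3 libraries low in tRNA to 0.600 points.

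For each of the 3 isotypes 4 of 5 MSUS libraries of this table were above the Control mean, and none of the 3 differences passed the test. By this exact permutation test none of the 10998 features passed (0%), although 2555 had an unadjusted p under 0.05, and 5 animals against 5 cannot give a p below 0.00794. After adjustment over so many features, a feature could pass only if very many others also lay near that floor. Not passing this share test therefore says little. Counting error was small beside these spreads: the widest 95% Wilson interval reached 0.0679 points either side of the share for Gly, 0.0379 for Glu and 0.0202 for Val. Intervals cover counting error only and treat every read as independent. Reads without molecular identifiers are not independent molecules, so the intervals may be too narrow even for that error.

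In the no-selection table the share of Gly was 11.6, 11.4, 10.7, 9.72 and 6.01% in MSUS males 2, 4, 6, 8 and 14, against 10.97, 4.10, 18.0, 7.79 and 9.36% in Control males 3, 5, 7, 9 and 11. The highest and the lowest library were both Controls, 7 and 5, and all MSUS libraries lay between them. The mean was 9.88 ± 2.29% in MSUS and 10.1 ± 5.14% in Control libraries (SD, n = 5 each), a difference of -0.167 points (exact permutation p = 0.968, adjusted p = 0.990 over 1075 features). The sign rested on single libraries: the difference was 1.83 points without Control 7 and -1.66 points without Control 5.

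Glu in this table took 3.64, 3.24, 3.47, 2.94 and 1.85% of all counts in MSUS males 2, 4, 6, 8 and 14, against 2.51, 1.18, 5.51, 2.95 and 2.08% in Control males 3, 5, 7, 9 and 11. Control 7 was again highest and Control 5 lowest. The mean was 3.03 ± 0.7095% in MSUS and 2.84 ± 1.63% in Control libraries (SD, n = 5 each), a difference of 0.182 points (exact permutation p = 0.841, adjusted p = 0.937). It was -0.234 points without Control 5 and 0.848 points without Control 7.

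Val took 0.427, 0.380, 0.417, 0.528 and 0.0898% of all counts in MSUS males 2, 4, 6, 8 and 14, against 0.150, 0.202, 0.594, 0.187 and 0.191% in Control males 3, 5, 7, 9 and 11. MSUS males 2, 4, 6 and 8 lay above 4 of the 5 Controls, Control 7 was highest of all and MSUS 14 lowest. The mean was 0.368 ± 0.165% in MSUS and 0.265 ± 0.185% in Control libraries (SD, n = 5 each), a difference of 0.104 points (exact permutation p = 0.341, adjusted p = 0.634). Without Control 7 it was 0.186 points and without MSUS 8 it was 0.0639 points. Of the 1075 features none passed the exact permutation test (0%), and 196 had an unadjusted p under 0.05. The smallest possible p of 0.00794 limits this adjusted test in the same way. Without Control 9, Control 11 and MSUS 14 the differences were -0.180 points for Gly, 0.254 for Glu and 0.123 for Val.

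**Figure D2:**
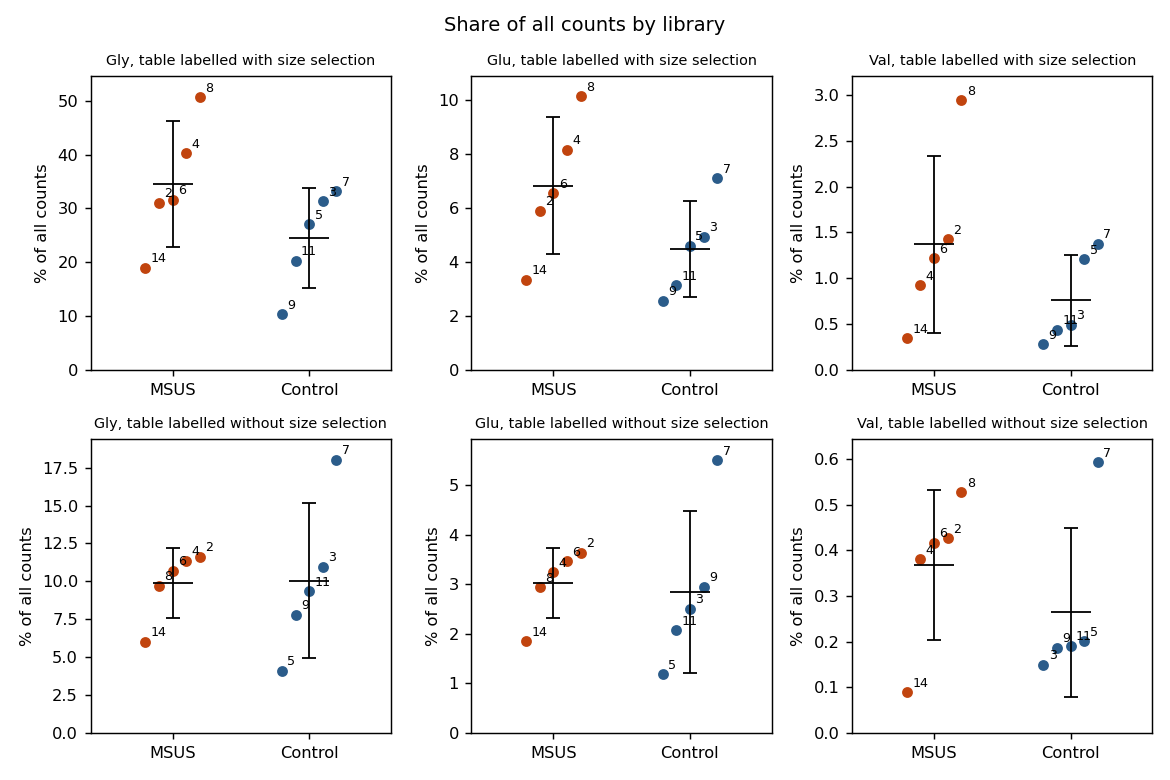
Share of all counts (%) of Gly, Glu and Val in each library, MSUS left and Control right, in the size-selection table (top) and the no-selection table (bottom); numbers are animals, the horizontal line is the group mean and the bar ± 1 SD (n = 5). The groups overlap in all 6 panels, with MSUS 8 highest in the top panels and Control 7 highest in the bottom ones.

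The library richest in all 3 isotypes in the size-selection table had the smallest share of mRNA. Shares of tRNA and mRNA have a common total, so a larger share of tRNA leaves less room for mRNA. Protein-coding transcripts took 16.5, 13.3, 14.7, 7.48 and 25.2% of all counts in MSUS males 2, 4, 6, 8 and 14, against 20.8, 20.7, 19.7, 31.6 and 25.8% in Control males 3, 5, 7, 9 and 11. MSUS 8, with the largest share of each isotype, had the least mRNA, and Control 9, with the smallest share of each, had the most. In the no-selection table MSUS 8 again had the least mRNA (5.89%) and Control 9 the most (13.6%). Mean mRNA was 7.48% in MSUS and 10.5% in Control libraries there, and 15.4% and 23.7% in the size-selection table. The match with tRNA did not recur: MSUS 8 and Control 9 held 14.4 and 12.2% tRNA in the no-selection table. Control 7 and Control 5, with the most and least tRNA there (25.3 and 6.20%), had 9.40 and 10.1% mRNA. Control 9 also had the highest sums of epithelial and of blood cell markers in the size-selection table. MSUS 14 had the highest sums of sperm and of muscle and stroma markers there. In the no-selection table Control 9 was highest for epithelial, blood cell, and muscle and stroma markers, and MSUS 4 for sperm markers. Blood cell markers summed to 46.1 to 188 CPM in MSUS and 110 to 262 CPM in Control libraries of the size-selection table. Muscle and stroma markers summed there to 178 to 1214 CPM in MSUS and 374 to 1189 CPM in Control libraries. All markers of both lists were above 0. The part of any of these in the differences of the tRNA shares was not tested.

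A count model across all features gave the same lack of calls. In the edgeR quasi-likelihood fit of the size-selection table, the log2 fold change of MSUS over Control was +1.33 for Gly (SE 0.61, unadjusted p = 0.0458, adjusted p = 0.859), +1.45 for Glu (SE 0.58, unadjusted p = 0.0236, adjusted p = 0.839) and +1.81 for Val (SE 0.80, unadjusted p = 0.0431, adjusted p = 0.858). No feature of 10998 passed (0%), and 635 had an unadjusted p under 0.05. DESeq2 called 33 of the 550 features to which it gave an adjusted p (6%) and limma voom 0 of 10998, and the 3 isotypes were among neither. With no filter on low counts edgeR called 48 of 61275 features (0.0783%), and Gly was one of them, at +1.18 (adjusted p = 0.0474). The 19 other tRNA isotypes tested had fold changes of the same sign, from +0.43 for Tyr to +1.57 for His.

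These fold changes depended on the scaling. TMM factors, which set a common level for the bulk of features, ran from 0.411 in MSUS 8 to 1.76 in Control 9. With the library total as the only scaling the median of all features was -0.58 on the log2 scale, and the fold changes were +0.48 for Gly, +0.59 for Glu and +0.84 for Val. With the miRNA sum as library size the median was -0.52 and the values were +0.72, +0.81 and +1.11. Under each of these scalings the 3 values stood above the median of all features. Without MSUS 8 the TMM-scaled values were +0.76 for Gly, +0.88 for Glu and +0.79 for Val. Without Control 9, Control 11 and MSUS 14 they were +1.16, +1.29 and +1.58.

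For the no-selection table edgeR gave +0.19 for Gly (SE 0.34, adjusted p = 0.849), +0.32 for Glu (SE 0.34, adjusted p = 0.748) and +0.71 for Val (SE 0.53, adjusted p = 0.624), all as log2 fold changes of MSUS over Control. Again no feature passed, 0 of 1075 (0%), with 85 at an unadjusted p under 0.05, and DESeq2 and limma voom also called 0. With the library total as the only scaling, where the median of all features was -0.30, Gly was at -0.06, Glu at +0.05 and Val at +0.44. With the miRNA sum, where that median was -0.36, they were at -0.15, -0.06 and +0.33. Without Control 7 the TMM-scaled values were +0.60, +0.80 and +1.34, and without Control 5 Gly was at 0.00 and Glu at +0.13. Without Control 9, Control 11 and MSUS 14 they were +0.06, +0.20 and +0.59. The MSUS effect itself did not differ detectably between the tables. The interaction term, as the log2 effect in the first table minus that in the second, was +0.78 for Gly (SE 0.42), +0.71 for Glu (SE 0.42) and +0.67 for Val (SE 0.38), each with an edgeR adjusted p of 1.00. Of 8109 features none passed (0%), with 272 at an unadjusted p under 0.05.

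Shares of the tRNA counts describe the mix of isotypes whatever amount of tRNA a library holds. In the size-selection table Gly took 76.8, 78.7, 76.7, 76.6 and 79.9% of tRNA counts in MSUS males 2, 4, 6, 8 and 14, against 82.5, 78.3, 76.2, 72.0 and 80.3% in Control males 3, 5, 7, 9 and 11. All MSUS values fell within the Control range, with Control 3 highest and Control 9 lowest. The mean was 77.7 ± 1.49% in MSUS and 77.9 ± 4.02% in Control libraries (SD, n = 5 each), a difference of -0.119 points (exact permutation p = 0.976, adjusted p = 0.976 over 23 isotypes). Its sign turned without Control 3, to 1.04 points, and the difference was -1.58 points without Control 9. Without the 3 libraries low in tRNA it was -1.79 points.

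Glu took 14.6, 16.0, 15.9, 15.3 and 14.1% of tRNA counts in MSUS males 2, 4, 6, 8 and 14 of that table, against 13.0, 13.3, 16.3, 17.8 and 12.4% in Control males 3, 5, 7, 9 and 11. Here Control 9 was highest and Control 11 lowest, and the MSUS libraries again lay inside the Control range. Means were 15.2 ± 0.828% in MSUS and 14.6 ± 2.36% in Control libraries (SD, n = 5 each; difference 0.603 points, exact permutation p = 0.595, adjusted p = 0.721). Val took 3.52, 1.82, 2.95, 4.45 and 1.47% in the same MSUS males, against 1.30, 3.49, 3.17, 1.95 and 1.74% in the same Control males. Its means were 2.84 ± 1.22% in MSUS and 2.33 ± 0.949% in Control libraries (SD, n = 5 each; difference 0.515 points, exact permutation p = 0.500, adjusted p = 0.721). MSUS 8 was highest, Control 3 lowest, and the Val difference was 0.113 points without MSUS 8, 0.258 without Control 3, 0.805 without Control 5 and 0.858 without MSUS 14. The Glu difference was 0.0567 points without Control 11 and 1.41 points without Control 9. Without the 3 libraries low in tRNA it was 1.23 points for Glu and 0.533 points for Val. By the exact permutation test none of the 23 isotypes passed (0%), and 0 had an unadjusted p under 0.05. With a smallest possible p of 0.00794, no isotype could pass the adjustment over 23 on its own.

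In the no-selection table Gly took 68.6, 69.9, 68.3, 67.6 and 69.5% of tRNA counts in MSUS males 2, 4, 6, 8 and 14, against 76.7, 66.1, 71.2, 64.0 and 74.2% in Control males 3, 5, 7, 9 and 11. All 5 MSUS values were below the Control mean and inside the Control range. The means were 68.8 ± 0.919% in MSUS and 70.4 ± 5.33% in Control libraries (SD, n = 5 each), a difference of -1.67 points (exact permutation p = 0.516, adjusted p = 1). It was -0.113 points without Control 3 and -3.28 points without Control 9.

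Glu took 21.5, 19.95, 22.1, 20.4 and 21.4% in those MSUS males, against 17.5, 19.1, 21.8, 24.2 and 16.4% in those Control males. The 5 MSUS values were above the Control mean, and again inside the Control range. Means were 21.1 ± 0.852% in MSUS and 19.8 ± 3.17% in Control libraries (SD, n = 5 each; difference 1.26 points, exact permutation p = 0.405, adjusted p = 1). Val took 2.52, 2.34, 2.66, 3.67 and 1.04% in MSUS males 2, 4, 6, 8 and 14, against 1.05, 3.26, 2.35, 1.53 and 1.51% in Control males 3, 5, 7, 9 and 11. Its means were 2.45 ± 0.942% in MSUS and 1.94 ± 0.872% in Control libraries (SD, n = 5 each; difference 0.507 points, exact permutation p = 0.397, adjusted p = 1). MSUS 8 was highest and MSUS 14 lowest, and the Val difference was 0.1998 points without MSUS 8, 0.284 without Control 3, 0.836 without Control 5 and 0.859 without MSUS 14. The Glu difference was 0.416 points without Control 11 and 2.35 points without Control 9. Without the 3 libraries low in tRNA the differences were -2.74 points for Gly, 1.53 for Glu and 0.582 for Val. Again no isotype passed the exact permutation test, 0 of 23 (0%), under the same limit, and 0 had an unadjusted p under 0.05.

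**Figure D3:**
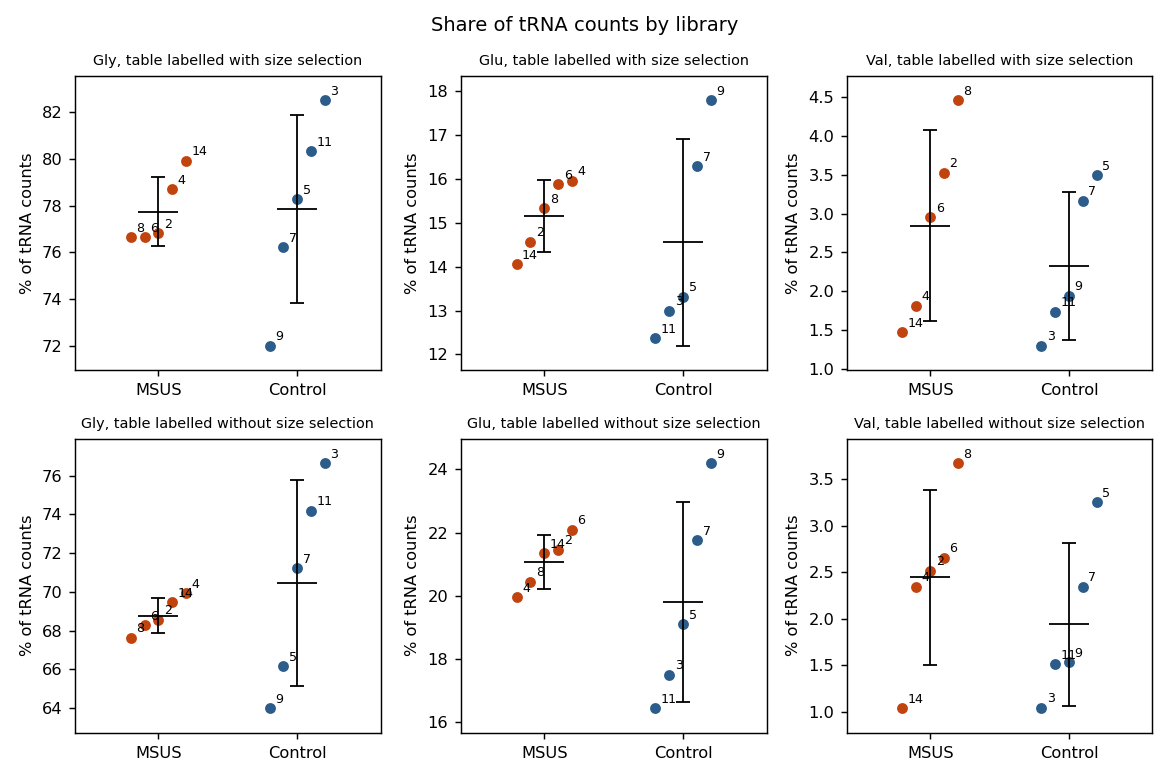
Share of tRNA counts (%) of Gly, Glu and Val in each library, MSUS left and Control right, in the size-selection table (top) and the no-selection table (bottom); the vertical axes do not start at 0, numbers are animals, lines are group means and bars ± 1 SD (n = 5). For Gly and Glu the Control libraries are spread more widely than the MSUS libraries, and for Val MSUS 8 is highest in both tables.

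Among the 3, the spread over animals relative to the mean was larger the scarcer the isotype, and the spread in percentage points was smaller. Over the 10 libraries the coefficient of variation of the share of tRNA counts was 3.67% for Gly, 11.4% for Glu and 41.3% for Val in the size-selection table. It was 5.33%, 11.2% and 40.9% in the no-selection table. The order did not extend to Lys, which was scarcer than Val in the size-selection table (2.33% against 2.59% of tRNA counts). The coefficient for Lys there was 30.9%, lower than that of Val. The SD was 2.86 points for Gly, 1.70 for Glu and 1.07 for Val in the size-selection table, and 3.71, 2.28 and 0.897 points in the no-selection table. The widest 95% Wilson interval of these shares was 0.123 points either side for Gly, 0.104 for Glu and 0.0447 for Val in the first table, and 0.659, 0.547 and 0.247 points in the second.

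The same libraries were read in both tables, which allows the composition to be compared animal by animal. As a share of all counts Gly averaged 29.5% in the size-selection table and 9.97% in the no-selection table, and it was higher in the first in 10 of 10 animals (exact two-sided sign-flip p = 0.00195, the smallest possible, adjusted p = 0.0025 over 23 isotypes). Glu averaged 5.64% and 2.94% and was higher in 9 of 10 animals (exact sign-flip p = 0.00391, adjusted p = 0.00473), with Control 9 the exception at 2.57% and 2.95%. Val averaged 1.07% and 0.317% and was higher in 10 of 10 (exact sign-flip p = 0.00195, adjusted p = 0.0025). The ratios of the means were 2.96 for Gly, 1.92 for Glu and 3.37 for Val. Of the 23 isotypes 19 passed in either direction (82.6%), so passing was the common result among tRNAs.

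As a share of tRNA counts the 3 isotypes went different ways between the tables. Gly was higher by 8.20 points in the size-selection table, with means of 77.8 and 69.6% (adjusted p = 0.00264, exact sign-flip test, higher in 10 of 10 animals). Glu was lower in all 10 animals, with means of 14.9 and 20.4% and a difference of -5.57 points (adjusted p = 0.00264, exact sign-flip test). Val was higher by 0.394 points, with means of 2.59 and 2.19% and 9 of 10 animals in that direction (exact sign-flip p = 0.0234, adjusted p = 0.0299). Unpaired, by an exact permutation without the animal block, the Val difference had p = 0.380. Leaving out single animals gave Val differences of 0.325 to 0.496 points, and the test no longer passed without MSUS 2, 8 or 14 or without Control 7 or 9. Here 18 of 23 isotypes passed (78.3%).

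In the edgeR fit with animal as a block, the log2 ratio of the size-selection table over the no-selection table was +0.69 for Gly (SE 0.22, adjusted p = 0.0173), +0.06 for Glu (SE 0.22, adjusted p = 0.845) and +0.77 for Val (SE 0.20, adjusted p = 0.00356). In that fit 3020 of 8109 features passed in either direction (37.2%), of which 1593 were higher in the first table (19.6%). Gly and Val are 2 of those 1593. Without Control 5 Gly was at +0.57 with an adjusted p of 0.0556. Glu changed sign when single animals were left out, from -0.12 without MSUS 8 to +0.22 without Control 9. With the library total as the only scaling, where the median of all features was +1.14, the log2 ratios were +1.56 for Gly, +0.94 for Glu and +1.64 for Val. All 3 passed under that scaling, as did 7216 of 8109 features (89%). Gly and Val were above that median and Glu was below it. Since contents and labels conflict, these directions hold for the tables as labelled.

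The order of the animals was compared between the tables. The share of tRNA counts taken by Val correlated between the tables at Pearson r = 0.920 (permutation p = 0.00012, adjusted p = 0.00072 over 12 relations) and Spearman rho = 0.915 (permutation p = 0.00057, adjusted p = 0.00342) over 10 animals. Without MSUS 8 and Control 3, the 2 farthest from the median in the size-selection table, r was 0.844. For Glu r was 0.874 (permutation p = 0.00092, adjusted p = 0.00276) and rho 0.818 (permutation p = 0.00593, adjusted p = 0.0142), with r = 0.696 without Control 9 and Control 11. For Gly r was 0.816 (permutation p = 0.00516, adjusted p = 0.00688) and rho 0.661 (permutation p = 0.0444, adjusted p = 0.0592), but r was 0.453 without Control 3 and Control 9, on which the relation for Gly rested. Both values of an animal come from 1 library, and the points share that origin.

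**Figure D4:**
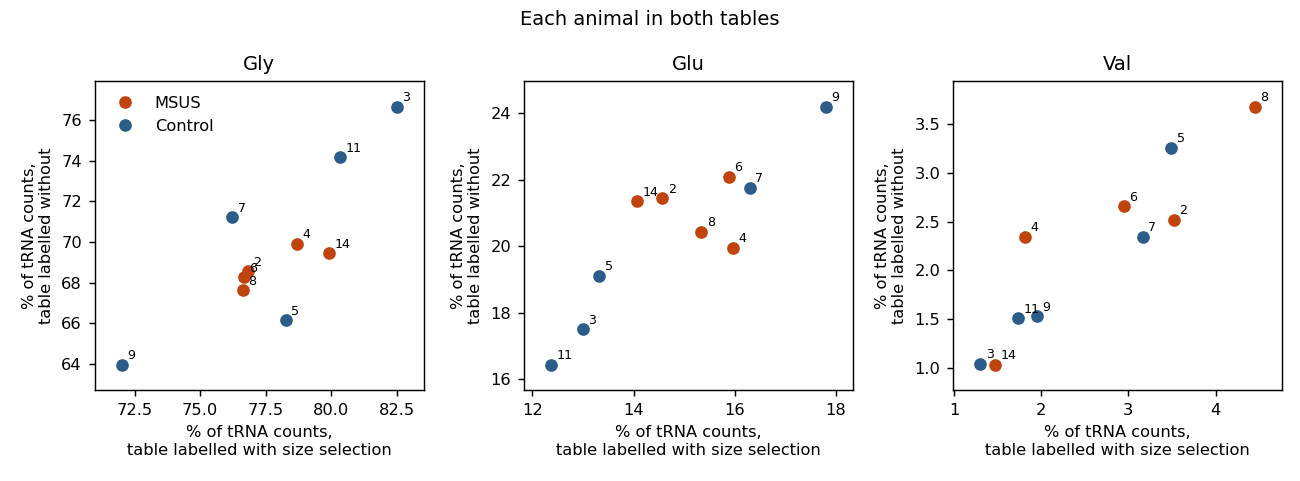
Share of tRNA counts (%) of Gly, Glu and Val for each of the 10 animals in the size-selection table (horizontal axis) and the no-selection table (vertical axis), MSUS in orange and Control in blue; axes do not start at 0. Val orders the animals alike in both tables (r = 0.920), while the relation for Gly leans on Control 3 and Control 9.

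The share of all counts was compared between the tables in the same way. Its correlation between the tables was r = 0.389 for Gly (permutation p = 0.260; rho = 0.624, permutation p = 0.0612) and r = 0.465 for Glu (permutation p = 0.175; rho = 0.515, permutation p = 0.134). Neither passed the adjustment over 12 relations. For Val r was 0.766 (permutation p = 0.00492, adjusted p = 0.00688) and rho 0.891 (permutation p = 0.00127, adjusted p = 0.00508). Without MSUS 8 and Control 9 the r values were 0.557 for Gly, 0.712 for Glu and 0.822 for Val, and the rho values 0.714, 0.738 and 0.929. The rho values of the share of tRNA counts, each without its own 2 farthest animals, were 0.333, 0.643 and 0.857, and no test compared the measures. MSUS 8 had the largest Gly share of the first table at 50.6% and 9.72% in the second, below the means of both groups there.

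Gly and Glu varied together over animals. Their shares of all counts correlated at r = 0.966 in the size-selection table (permutation p = 1e-05, the smallest that 100000 permutations can give, adjusted p = 0.00012; rho = 0.976, permutation p = 3e-05) and at r = 0.934 in the other (permutation p = 0.00047, adjusted p = 0.00188; rho = 0.855, permutation p = 0.0029). Without the 2 farthest animals these were 0.953 and 0.701. Gly and Val correlated at r = 0.831 in the first table (permutation p = 0.00304, adjusted p = 0.00521; rho = 0.758, permutation p = 0.0152), which dropped to 0.564 without MSUS 8 and Control 9. In the second table they correlated at r = 0.731 (permutation p = 0.0103, adjusted p = 0.0123; rho = 0.612, permutation p = 0.0669), and 0.614 without Control 5 and Control 7. Glu and Val correlated at r = 0.853 in the first table (permutation p = 0.0018, adjusted p = 0.00432; rho = 0.806, permutation p = 0.00724) and 0.802 in the second (permutation p = 0.00299, adjusted p = 0.00521; rho = 0.697, permutation p = 0.0299), or 0.655 and 0.775 without the 2 farthest animals. Shares of 1 library have a common total, and that total ties them to each other.

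Among the 221 features with a mean of at least 100 counts per library in both tables, the patterns nearest to each isotype over the 10 libraries were mostly other tRNAs. Likeness was the lower of the Pearson correlations of log2 CPM in the 2 tables, as a description. For Gly the nearest were Glu (0.928), Lys (0.719) and Val (0.649), and for Glu they were Gly (0.928), Lys (0.806) and Val (0.713). Val differed in its neighbours by this measure, which were the tRNA isotypes Gln (0.862) and Ser (0.856) and the mitochondrial tRNA-His mt-Th (0.786). In the size-selection table alone Val correlated with Glu at 0.887 and with Gly at 0.843, both above mt-Th. In the no-selection table Gln and Ser averaged only 153 and 137 counts, near the cut of 100.

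Transcripts of proteins that cut, modify, charge or bind tRNA were read in the same libraries, as mRNA-derived reads in small RNA libraries. Of 19 nuclease and inhibitor genes 8 were tested in the size-selection table and 0 passed (background 0%), with a median log2 fold change of MSUS over Control of 0.00, beside -0.00 over all features tested. Their largest value was +0.21 for Elac2 (SE 0.14, edgeR adjusted p = 0.913), which trims the 3′ end of tRNA precursors. Of 10 base modification genes 3 were tested and 0 passed, with a median of +0.01. All 3 synthetase genes listed for these amino acids were tested and 0 passed. Eprs, which charges tRNA-Glu, was at -0.15 (SE 0.11, edgeR adjusted p = 0.905), with 48.3 ± 24.3 CPM in MSUS and 77.5 ± 16.3 CPM in Control libraries (SD, n = 5 each). Vars, which charges tRNA-Val, was at +0.10, and Gars, which charges tRNA-Gly, at +0.06. The CPM values are of all counts and the fold changes are TMM-scaled, which is why their sizes differ.

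Of 9 argonaute and RNA-binding genes 7 were tested there and 0 passed, with a median of -0.02. Ybx1, a cold-shock protein that binds tRNA fragments, was at +0.14 (SE 0.12, edgeR adjusted p = 0.936). The most abundant were Hnrnpf, an RNA-binding protein, at 73.2 ± 36.1 CPM in MSUS and 107 ± 28.2 CPM in Control libraries with a log2 fold change of +0.02, and Ssb, the La protein that binds tRNA precursors, at 54.3 CPM in MSUS and 84.1 CPM in Control libraries with -0.04. Only 2 of these genes were tested in the no-selection table and 0 passed, Ago2, an argonaute, at -0.22 (SE 0.30) and Hnrnpf at +0.01 (SE 0.23), and no gene of the other 3 lists had enough counts to be tested.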

How the data were processed

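The authors deposited 2 tables of estimated counts per annotated RNA, and many values are not whole. GRCm38, STAR and edgeR are named, without their roles, per the submitters' processing notes. The way reads were assigned to tRNAs is not given in the sources examined. Per the labels' protocols, sperm were pelleted after swim-up, vesicles were spun down at 120000 rcf (2 h), and a small RNA kit from NEB was used for the libraries. Columns were matched to samples by the animal number and the label of the table. Shares were computed from the deposited estimated counts. For the count tests and intervals these were rounded to whole numbers, which removed 0.0504 to 0.0992% of counts in the size-selection table and 0.266 to 0.689% in the other.

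Tests used edgeR 4.0.16 in R 4.3.3 (filterByExpr, TMM, robust quasi-likelihood test, Benjamini-Hochberg adjustment over all features tested, threshold 0.05), with SE derived from the F statistic. DESeq2 1.42.0, limma 3.58.1, SciPy 1.17.1 and pandas 2.3.3 served the alternatives, exact tests and tables. MSUS was compared with Control in each table on its own, while the comparison between tables and the interaction used both. The count model was tested on simulated data with changes put into features drawn at random. That simulation was not aimed at features as abundant as Gly, so it is no check of the 3 isotypes. Shares of all counts were tested for every feature kept by that filter, and shares of tRNA counts for all 23 isotypes. Neighbour correlations used log2 of CPM plus 1. The 2 farthest animals left out of a correlation were chosen on 1 axis only. That axis was the size-selection table between tables, and the isotype named first within a table. The labels say that the same libraries were read in both runs, so the comparison between tables has animal as a block. Deviations from group means over 221 features had correlations of 0.405 to 0.870 within an animal, at most at 0.627 between different animals, and 10 of 10 animals matched themselves best. Gene and marker lists, like the 3 isotypes, were chosen with earlier results of these data known. Named beyond the 3 isotypes were the next tRNA by abundance, the nearest patterns, and the listed genes that passed or, as none did, the 3 with the smallest p and the 3 most abundant per table; Gars, His and Tyr were named after their values were seen. RefSeq (GRCm38.p6) gave the gene copies and the sequence.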

Additional observations from a re-analysis of the deposited data

Results flagged for a closer look

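In the no-selection table Val took 0.594% of all counts in Control 7, while the other 4 Control libraries held 0.150 to 0.202%. The gap to its nearest neighbour was 0.883 of the range of the group, above Dixon's 95% critical value of 0.71 for 5 samples. It was the only such library in 24 groups tested, and chance alone marks about 1 group in 20. Control 7 also had the largest share of tRNA of that table, at 25.3% of all counts. In the size-selection table it held 1.38% Val, next to 1.21% in Control 5.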

How the results depend on the processing

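Within a table no difference of the 3 isotypes between MSUS and Control passed the test under any alternative, except Gly in the size-selection table with no filter on low counts (log2 fold change +1.18). Without Control 9, Control 11 and MSUS 14, which were chosen by their tRNA share, 4 animals against 3 cannot give a share test a p below 0.0286 before adjustment, so its not passing says little. With 5 against 5 that floor is 0.00794, and no isotype could pass an adjusted share test on its own. The number of features called in the size-selection table was 3 with library totals only, 48 with no filter, 33 with DESeq2 and 0 to 2 with single libraries left out. In the no-selection table it was 1 with library totals only and 2 without Control 9, Control 11 and MSUS 14. The sign turned there for Gly with library totals (-0.0579) and miRNA sums (-0.15), and for Glu with miRNA sums (-0.0594). The medians of all features under these scalings were -0.30 and -0.36, and Gly and Glu stayed above them. The sign also turned for the Gly share of all counts there on the log2 scale (+0.10). Leaving out single libraries gave -1.66 to 1.83 points for that Gly share, -0.234 to 0.848 points for the Glu share there, and -1.58 to 1.04 points for the Gly share of tRNA counts in the size-selection table.

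Between the tables, without the replicate block, edgeR gave +0.85 for Gly (adjusted p = 0.0605) and +1.10 for Val (adjusted p = 0.103), neither of which passed, and the Val share of tRNA counts differed by 0.394 points (adjusted p = 0.486); the block changed no other call. With library totals only Glu passed at +0.94 and 7216 features were called (89%). Leaving out single animals gave +0.51 to +0.84 for Gly, -0.12 to +0.22 for Glu, and 0.325 to 0.496 points for the Val share of tRNA counts. The causes were not tested. Of the other values of the 3 isotypes under an alternative, 335 kept their direction and side of the threshold. Val had 545 to 2252 counts per library in the no-selection table, so that its relative counting error is the largest of the 3.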
